A study of Mus musculus with 9 samples.

Results

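The extracellular matrix genes and the integrin receptor genes of mouse embryonic stem cells were examined in 9 RNA sequencing libraries. Members were chosen by symbol and count: collagen chains (Col genes), laminin chains (Lama, Lamb and Lamc genes), the nidogens Nid1 and Nid2, fibronectin Fn1, perlecan Hspg2 and the integrin chains (Itga and Itgb genes), with a count of at least 90 summed over all 9 libraries. Of 86 symbols of these families among the 33924 genes of the deposited table, 60 met the rule, and all 60 passed the filter on low counts and were tested. They comprised 42 matrix genes (29 collagens, 9 laminins, 2 nidogens, Fn1 and Hspg2) and 18 receptor genes (13 integrin alpha and 5 integrin beta chains). The members nearest the threshold were Col23a1 with 111 and Col6a4 with 112 summed counts, and just outside it lay Col14a1 with 73 and Col8a1 with 72; the integrin gene Itgb8 had 28 and was left out.

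The study compared 3 groups of 3 libraries. The first was a knockout of UTX, the product of the X-linked gene Kdm6a, which removes methyl groups from lysine 27 of histone H3. The second was labelled a knockdown of MLL4, an enhancer H3K4 methyltransferase whose gene, Kmt2d, is listed here under its older symbol Mll2. The third was wild type. All were untreated male embryonic stem cells on gelatin in medium with serum and the cytokine LIF. The library titles give A6 for the UTX knockout and JM8A for wild type and for the libraries labelled as MLL4 knockdown, the last with a further number that the labels do not explain. A difference between lines or clones therefore cannot be told apart from the perturbation. All 4 Y-linked genes tested were lower than in wild type in both perturbed groups, although the labels call every sample male. Their median log2 fold change was -3.93 for UTX knockout libraries and -4.18 for those labelled as MLL4 knockdown.

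The extracellular matrix is the protein network that cells secrete around themselves. Basement membrane, its sheet-like form, is built from laminin trimers (one alpha, one beta and one gamma chain) and type IV collagen, joined by nidogen and perlecan, and it is the first matrix that the early mouse embryo lays down. Fibrillar collagens belong mainly to connective tissue. Integrins are cell surface receptors of one alpha and one beta chain that bind these proteins; in embryonic stem cells laminin and fibronectin are bound mainly by integrins that contain the beta1 chain, the product of Itgb1.

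Total counts were 19568494 to 23874816 per UTX knockout library, 18570746 to 22531867 per library labelled as MLL4 knockdown and 18785719 to 23515830 per wild type library. Levels are given as CPM, the count of a gene scaled to library size with TMM factors. Kdm6a averaged 16.4 ± 3.33 CPM in the UTX knockout and 78.9 ± 18.9 CPM in wild type (SD, n = 3 each; log2 fold change -2.27, SE 0.20, adjusted p = 0.000155). The deleted part of the gene is not given in the sources used here. Mll2 averaged 72.1 ± 1.21 CPM in the libraries labelled as MLL4 knockdown and 82.9 ± 37.9 CPM in wild type, and the difference did not pass the test (log2 fold change -0.20, SE 0.27, adjusted p = 0.624). Without wild type replicate 2 it passed, at -0.51 (adjusted p = 0.0344), and without wild type replicate 3 its sign turned, at 0.16 (adjusted p = 0.670). That this group is a knockdown of MLL4 therefore rests on its label. The 12 pluripotency markers, among them Pou5f1, Nanog and Sox2, were present in every library and summed to between 5998 and 7824 CPM. Markers of other cell types were also present: of 20 endoderm markers 18 had a count in the UTX knockout and 19 in each other group, and of 15 trophectoderm markers 13 had a count in the UTX knockout and 14 in each other group. No label states that replicates were grown as separate cultures; the p-values therefore reflect the spread between these libraries alone, and that spread may be technical.

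Promoter sequence is shown for 3 members that passed the test in both comparisons with wild type: Nid1, which rose, and Itgb1 and Col5a3, which fell. Each run reads 5′ to 3′ and lies upstream of the annotated start (GRCm38.p6, from RefSeq). The table held promoters of 41 of the 60 members. Lama1, Fn1, Lamc1, Nid2 and Itgb3 were not among them. For Nid1 the run is cut to the 199 bases that lie before any annotated exon, chr13:13437352-13437550, plus strand. Itgb1 is at chr8:128685404-128685653, plus strand, and Col5a3 at chr9:20815068-20815317, minus strand. Capitals mark matches to the GC box GGGCGG and to the CCAAT box CCAAT, on either strand.
Nid1: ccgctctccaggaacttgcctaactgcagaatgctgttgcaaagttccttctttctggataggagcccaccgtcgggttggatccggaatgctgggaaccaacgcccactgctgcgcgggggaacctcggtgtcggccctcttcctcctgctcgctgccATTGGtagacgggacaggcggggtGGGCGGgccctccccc
Itgb1: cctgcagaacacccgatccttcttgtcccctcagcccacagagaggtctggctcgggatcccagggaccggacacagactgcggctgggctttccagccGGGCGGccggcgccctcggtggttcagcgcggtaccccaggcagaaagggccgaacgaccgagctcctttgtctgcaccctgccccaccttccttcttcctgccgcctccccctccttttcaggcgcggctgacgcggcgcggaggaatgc
Col5a3: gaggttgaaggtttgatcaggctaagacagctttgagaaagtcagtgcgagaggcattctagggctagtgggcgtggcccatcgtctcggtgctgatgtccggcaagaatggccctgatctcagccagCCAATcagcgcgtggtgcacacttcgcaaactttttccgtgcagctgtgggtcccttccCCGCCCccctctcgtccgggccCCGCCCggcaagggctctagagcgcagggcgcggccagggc
Nid1 held 1 GC box and 1 CCAAT box, Itgb1 held 1 GC box, and Col5a3 held 2 GC boxes and 1 CCAAT box. None of these 3 windows held TATAAA or the AP-1 letters TGANTCA on either strand. Of 32851 promoters of 250 bases, 32.7% held GGGCGG, 33.8% CCAAT, 12.4% TATAAA and 6.75% TGANTCA. A match is a description of the letters and not a bound site.

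The matrix transcripts of these cells were dominated by basement membrane genes and Fn1. Per kilobase of transcript, Fn1 was the highest matrix member in every group, at 274 ± 48.5 CPM per kilobase in the UTX knockout, 261 ± 37.1 in the libraries labelled as MLL4 knockdown and 141 ± 38.2 in wild type. Lamc1, the gamma1 chain of most laminins, came second in each group, at 102 ± 12.6, 123 ± 7.37 and 74.1 ± 19.1 CPM per kilobase in the same order of groups. Col18a1, the basement membrane collagen that yields endostatin, followed in wild type at 65.2 ± 2.93, and its interval of 1 SD overlapped that of Nid2 at 58.4 ± 13.2. By this level Nid1 had rank 4 among matrix members in the UTX knockout, rank 5 in the libraries labelled as MLL4 knockdown and rank 7 in wild type. Together Col18a1, Col4a1 and Col4a2 made up 84.4% ± 2.30 of the summed collagen CPM in the UTX knockout, 89.7% ± 1.04 in the libraries labelled as MLL4 knockdown and 78.1% ± 1.44 in wild type. The 14 lowest-ranked matrix genes of wild type, all but Lama4 collagens, were each below the level of Lamb3 there. Among receptors, Itgb1 and Itga6 were the 2 highest in every group, with Itgb1 first in wild type (103 ± 9.47 CPM per kilobase) and Itga6 first in the UTX knockout (59.5 ± 6.79) and the libraries labelled as MLL4 knockdown (67.7 ± 8.73). The SD intervals of these 2 genes overlapped in both perturbed groups.

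**Figure D1:**
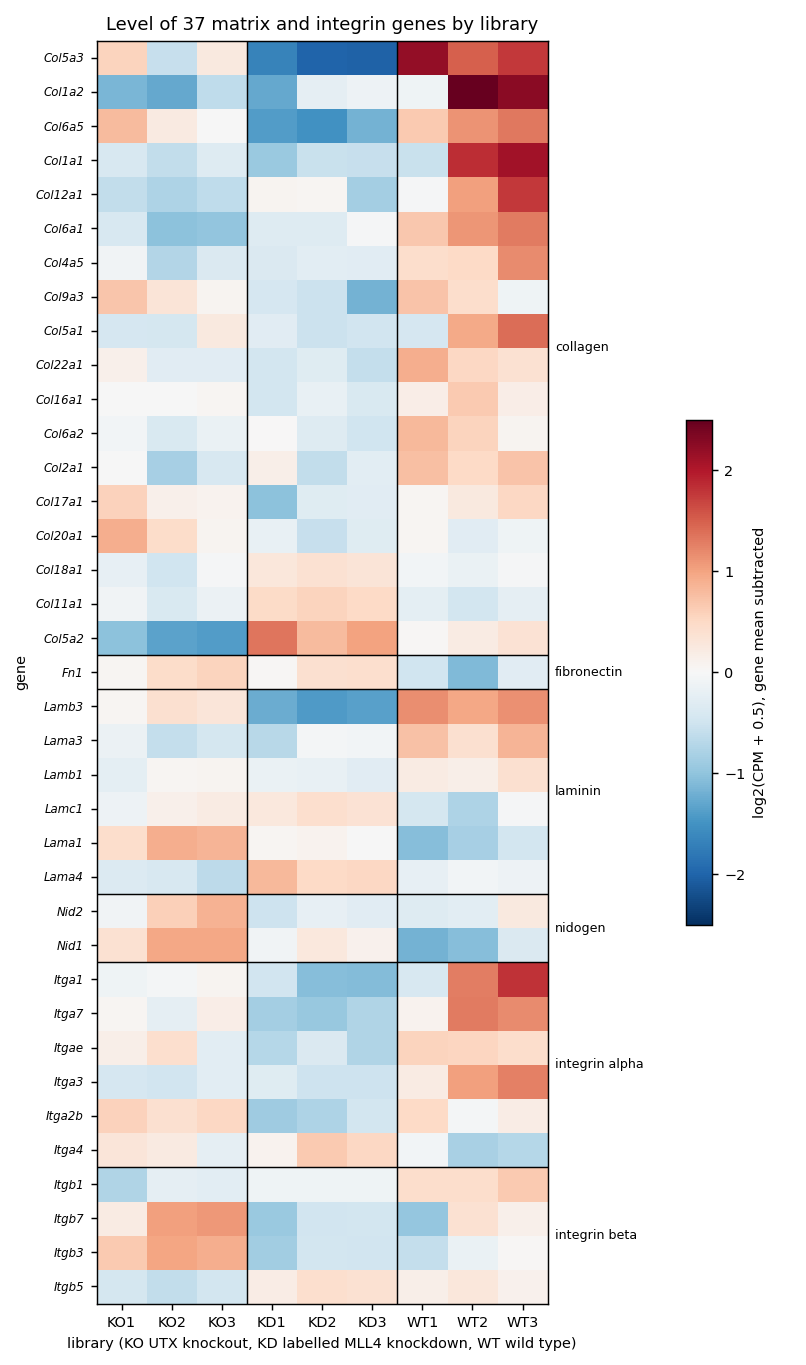
Level of the 37 members that passed in any comparison, in the 9 libraries (columns; KO, UTX knockout; KD, labelled MLL4 knockdown; WT, wild type), as log2(CPM + 0.5) with the mean of each gene subtracted, grouped by gene family. Col1a1, Col1a2 and Col12a1 are higher in wild type replicates 2 and 3 than in any other library.

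Loss of UTX went with higher Fn1, Lama1 and Nid1 and with lower levels of 9 collagen genes, the laminin genes Lama3 and Lamb3, and 4 integrins. Of the 60 members, 19 passed the test (edgeR quasi-likelihood, Benjamini-Hochberg adjusted p under 0.05), against a background of 15.5% of all 14772 genes tested. Of the 42 matrix members, 3 rose and 11 fell, and of the 18 receptor members, 1 rose and 4 fell; over all genes 6.55% rose and 8.92% fell. The median log2 fold change was -0.17 for matrix members and 0.05 for receptor members, beside -0.01 for all genes. With the replicate number as a block, all 19 calls were kept and the background count grew to 3446 genes, against 2285 without it. Replicate 2 of each group was sequenced in lane 1 and replicates 1 and 3 in lane 2. With the libraries of lane 2 alone, all 19 kept their direction and 0 passed, and 74 genes passed over the whole table. At an unadjusted p under 0.05 there were 17 matrix and 5 receptor members, beside 2735 of all 14772 genes.

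Nid1, which links laminin to type IV collagen, showed the largest rise among members in the UTX knockout. It had 397, 595 and 592 CPM in the UTX knockout libraries, against 134, 145 and 235 CPM in wild type. The groups did not overlap, and the log2 fold change was 1.62 (SE 0.22, adjusted p = 0.00155). Lama1, the alpha chain of laminin-111 in early embryonic basement membranes, had 244, 337 and 324 CPM in the UTX knockout, against 85.8, 101 and 131 CPM in wild type. Every UTX knockout library was above every wild type library (log2 fold change 1.51, SE 0.17, adjusted p = 0.000526). Fn1, a fibril-forming ligand of several integrins, had 1819, 2428 and 2582 CPM in the UTX knockout, against 1243, 821 and 1444 CPM in wild type. Its groups did not overlap either (log2 fold change 0.96, SE 0.20, adjusted p = 0.0111), although wild type replicate 2 was low for Fn1. These 3 calls were kept without each library in turn.

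Lamc1, Nid2, Lamb1, Col4a1, Col4a2 and Hspg2 did not pass in the UTX knockout. Lamc1 had 671, 807 and 856 CPM in the UTX knockout, against 541, 432 and 721 CPM in wild type, with overlap (log2 fold change 0.46, SE 0.17, adjusted p = 0.0874; 0.0378 with the replicate block). Nid2 had 285, 459 and 555 CPM in the UTX knockout, against 243, 253 and 359 CPM in wild type (log2 fold change 0.60, SE 0.22, adjusted p = 0.0902; 0.0162 with the block). In both genes the lowest UTX knockout library lay below the highest wild type library. Lamb1, the beta chain partner of Lama1 in laminin-111, had 138, 171 and 172 CPM in the UTX knockout, against 189, 182 and 216 CPM in wild type. The Lamb1 groups did not overlap, but the change missed the threshold (log2 fold change -0.29, SE 0.12, adjusted p = 0.122; 0.0417 once the trend of level with transcript length was removed). Col4a1 and Col4a2, which encode the main type IV collagen chains and start head to head with first exons that overlap by 22 bases, showed log2 fold changes of 0.22 (SE 0.29, adjusted p = 0.653) and 0.00 (SE 0.38). Col4a1 ran from 59.6 to 129 CPM in the UTX knockout and from 54.3 to 109 CPM in wild type, with replicate 1 lowest in each group. Hspg2, the heparan sulfate proteoglycan perlecan, averaged 741 ± 251 CPM in the UTX knockout and 548 ± 237 CPM in wild type (log2 fold change 0.44, SE 0.28, adjusted p = 0.325). A p above the threshold does not show that Col4a1 and Hspg2 were equal in the groups.

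**Figure D2:**
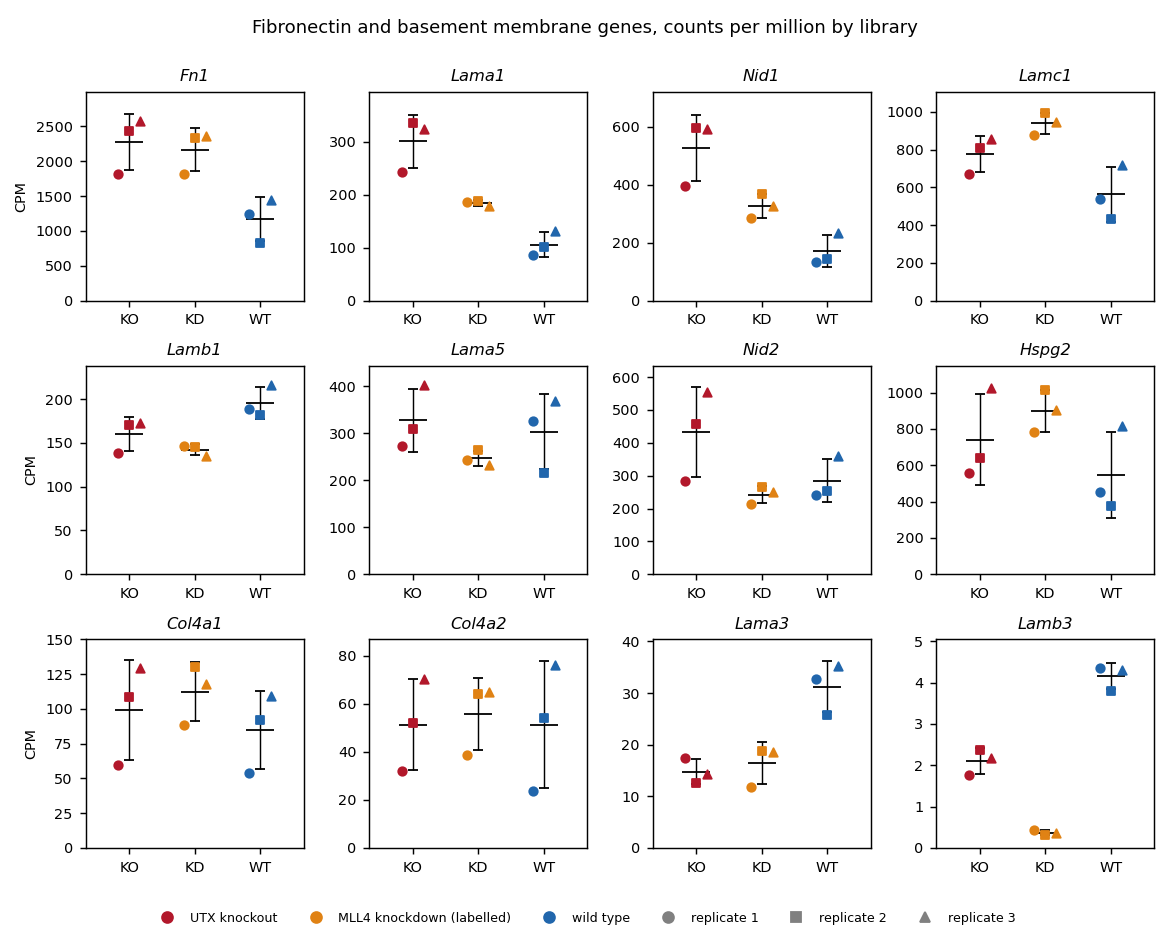
CPM of Fn1 and 11 laminin, nidogen, perlecan and type IV collagen genes in each library (vertical axes start at 0; KO, UTX knockout; KD, labelled MLL4 knockdown; WT, wild type; bars, mean ± SD of 3; symbols mark replicate numbers). All UTX knockout libraries lie above all wild type libraries for Fn1, Lama1 and Nid1, and all lie below for Lama3 and Lamb3.

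Lama3 and Lamb3, alpha and beta chains of laminin-332 in epithelial basement membranes, fell. Lama3 had 17.5, 12.7 and 14.3 CPM in the UTX knockout, against 32.7, 25.7 and 35.2 CPM in wild type (log2 fold change -1.08, SE 0.20, adjusted p = 0.00631). Lamb3 had 1.77, 2.38 and 2.18 CPM in the UTX knockout, against 4.36, 3.79 and 4.30 CPM in wild type (log2 fold change -0.97, SE 0.22, adjusted p = 0.0147; 0.0512 without UTX knockout replicate 3). Neither gene's groups overlapped.

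The 9 collagen genes that fell were all low in wild type, with Col5a3 the highest of them at 13.3 CPM on average. In bulk RNA, fewer cells of a type and less RNA per cell cannot be told apart. Col5a3 and Col5a2 encode chains of the minor fibrillar collagen V, which starts the assembly of collagen I fibrils. Col5a3 had 5.15, 2.08 and 4.04 CPM in the UTX knockout, against 17.1, 10.3 and 12.5 CPM in wild type (log2 fold change -1.82, SE 0.31, adjusted p = 0.00394). Col5a2 had 0.442, 0.259 and 0.232 CPM in the UTX knockout, against 1.45, 1.71 and 1.97 CPM in wild type (log2 fold change -2.45, SE 0.35, adjusted p = 0.00171). In both genes every UTX knockout library was below every wild type library. Col2a1, the fibrillar collagen of cartilage, averaged 5.14 ± 1.57 CPM in the UTX knockout and 11.1 ± 1.03 CPM in wild type (log2 fold change -1.11, SE 0.25, adjusted p = 0.0147; 0.0679 without UTX knockout replicate 2 and 0.0546 without replicate 3). Col6a1, a chain of the beaded microfibril collagen VI, had 11, 4 and 4 counts in the UTX knockout and 32, 57 and 64 counts in wild type (log2 fold change -2.96, SE 0.44, adjusted p = 0.00217).

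Further collagens that fell rest on few counts or on single libraries. Col1a2, a chain of collagen I, had 1, 0 and 6 counts in the UTX knockout and 12, 156 and 118 counts in wild type (adjusted p = 0.00991; 0.0530 without UTX knockout replicate 2). Its partner chain Col1a1 had 1.37, 1.12 and 1.49 CPM in the UTX knockout, against 1.20, 8.35 and 10.2 CPM in wild type (log2 fold change -2.31, SE 0.57, adjusted p = 0.0210). The Col1a1 groups overlapped through wild type replicate 1, and adjusted p lay between 0.0581 and 0.0922 without wild type replicate 2 or 3 or UTX knockout replicate 2 or 3. Col12a1, a fibril-associated collagen, had 5, 4 and 5 counts in the UTX knockout and 12, 43 and 76 counts in wild type (adjusted p = 0.0121; 0.0620 without UTX knockout replicate 2). Col4a5, a type IV chain, averaged 0.641 ± 0.247 CPM in the UTX knockout and 1.98 ± 0.766 CPM in wild type (log2 fold change -1.63, SE 0.38, adjusted p = 0.0149), and missed the threshold when wild type replicate 3 (0.0550) was left out, or UTX knockout replicate 2 (0.0712) or 3 (0.0530). Col22a1, a collagen of tissue junctions, averaged 1.97 ± 0.422 CPM in the UTX knockout and 3.65 ± 0.821 CPM in wild type (log2 fold change -0.89, SE 0.26, adjusted p = 0.0390). It missed the threshold when any of these was left out: wild type replicate 1 or 2, UTX knockout replicate 2 or 3, or any library labelled as MLL4 knockdown (adjusted p 0.0526 to 0.150). With the replicate block Col5a1 (0.0366) and Col6a2 (0.0277) also passed, both lower in the UTX knockout; without it their adjusted p was 0.0771 and 0.0667.

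Among the integrins, the UTX knockout showed lower Itgb1, Itga3, Itgb5 and Itga7 and higher Itgb3. Itgb1 had 163, 235 and 229 CPM in the UTX knockout, against 370, 371 and 433 CPM in wild type. No UTX knockout library reached the lowest wild type library (log2 fold change -0.91, SE 0.14, adjusted p = 0.00268). Itgb1, Col4a1 and Col4a2 lie on chromosome 8, where the median log2 fold change of 774 genes was -0.44, with 278 lower and 7 higher. Its part in the Itgb1 result was not tested. Itga3, an alpha chain for laminin-332 and laminin-511, had 67.4, 64.2 and 75.0 CPM in the UTX knockout, against 104, 185 and 218 CPM in wild type (log2 fold change -1.29, SE 0.22, adjusted p = 0.00386). Wild type replicate 1 was the lowest of its group, yet above all UTX knockout libraries.

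Itgb5, which pairs with the alphaV chain to bind vitronectin, had 42.9, 38.0 and 42.4 CPM in the UTX knockout, against 64.5, 71.2 and 62.8 CPM in wild type (log2 fold change -0.69, SE 0.11, adjusted p = 0.00349). Itgb3, the other main alphaV partner, had 14.7, 18.6 and 17.7 CPM in the UTX knockout, against 5.87, 8.06 and 9.32 CPM in wild type (log2 fold change 1.13, SE 0.20, adjusted p = 0.00489). These 2 beta chains moved in opposite directions with no overlap of groups. Per kilobase, the ratio of Itgb3 to Itgb5 was 0.194, 0.277 and 0.236 in the UTX knockout, against 0.0517, 0.0642 and 0.0842 in wild type. Itgav, the alphaV chain itself, averaged 59.6 ± 6.94 CPM in the UTX knockout and 49.8 ± 8.52 CPM in wild type, and missed the threshold (log2 fold change 0.26, SE 0.14, adjusted p = 0.249). Itga7, a laminin receptor chain known from muscle, had 5.06, 4.11 and 5.57 CPM in the UTX knockout, against 5.19, 12.8 and 11.7 CPM in wild type (log2 fold change -1.02, SE 0.29, adjusted p = 0.0374). The Itga7 groups overlapped through wild type replicate 1, and the call ended without any single library except wild type replicate 1 (adjusted p 0.0515 to 0.148). Itgb7 (log2 fold change 0.88, adjusted p = 0.0853) missed the threshold and passed with the replicate block (0.00211), with DESeq2 (0.0309), with no filter on low counts (0.0133) and without UTX knockout replicate 1 (0.0398). Itgb4 (log2 fold change 0.53, adjusted p = 0.0892) missed it and passed with the block (0.0302). Itga6 (log2 fold change 0.13, SE 0.15), Itga5 (-0.03, SE 0.16) and Itga9 (-0.05, SE 0.14), alpha chains for laminin, fibronectin and tenascin among other ligands, did not pass, at adjusted p of 0.603, 0.932 and 0.839.

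**Figure D3:**
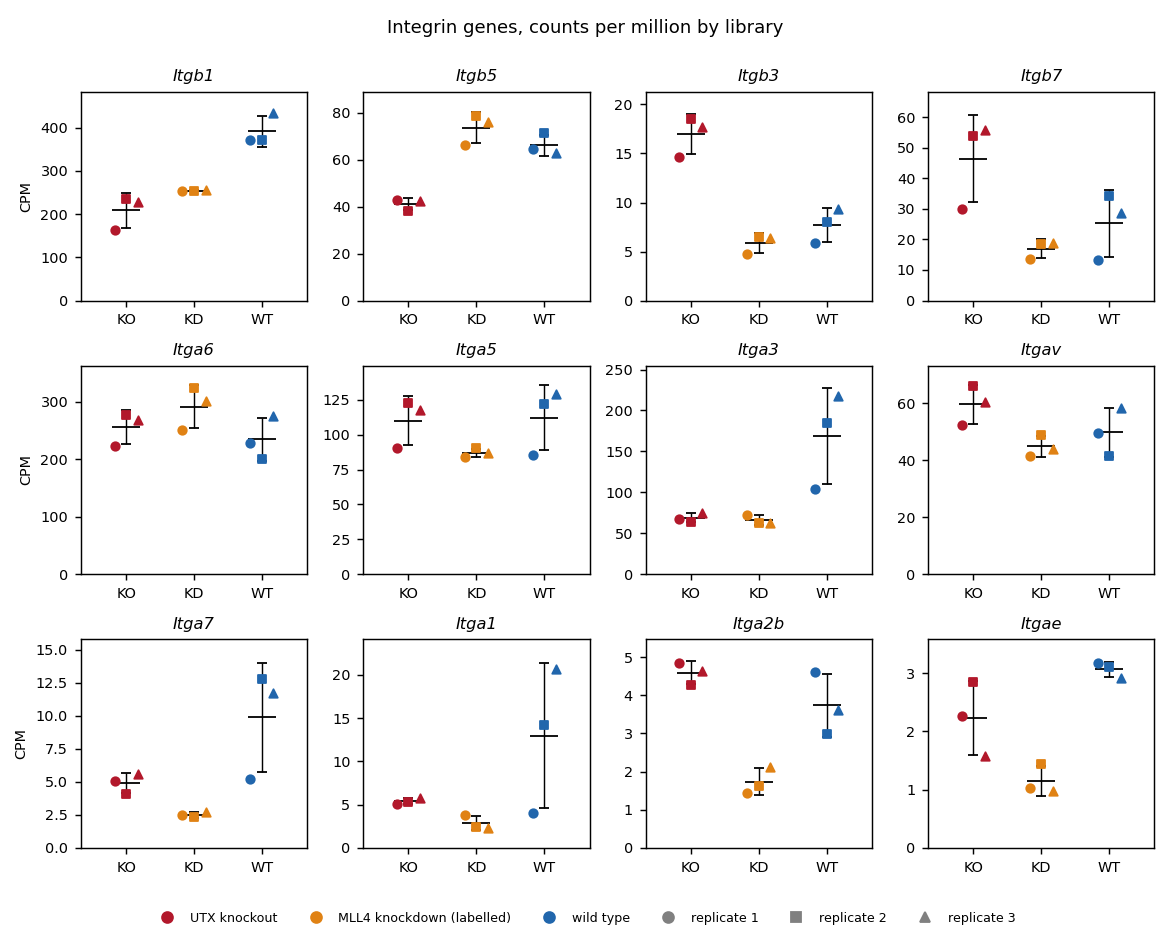
CPM of 12 integrin genes in each library (vertical axes start at 0; KO, UTX knockout; KD, labelled MLL4 knockdown; WT, wild type; bars, mean ± SD of 3; symbols mark replicate numbers). Itgb1 is lower in all UTX knockout libraries and all libraries labelled as MLL4 knockdown than in wild type, and Itgb3 is highest in the UTX knockout.

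The libraries labelled as MLL4 knockdown were compared with the same wild type libraries, so the values of both comparisons share that reference and are given side by side without a measure of their likeness. Here Fn1, Lama1, Lamc1, Lama4, Nid1, Col18a1, Col11a1, Col5a2 and Itga4 were higher, and 14 collagen genes, 3 laminin genes and 6 integrin genes were lower. Of the 60 members, 32 passed, against 26.6% of all genes tested. Of the 42 matrix members, 8 rose and 17 fell, and of the 18 receptor members, 1 rose and 6 fell; over all genes 10.8% rose and 15.8% fell. The median log2 fold change was -0.59 for matrix members, -0.38 for receptor members and -0.02 for all genes. Within lane 2 alone, 8 of the 32 calls were kept and all 32 kept their direction, and with the replicate block all 32 were kept.

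Fn1 had 1811, 2329 and 2360 CPM in the libraries labelled as MLL4 knockdown, against 1243, 821 and 1444 CPM in wild type (log2 fold change 0.89, SE 0.20, adjusted p = 0.00905). Lama1 had 186, 189 and 178 CPM in the libraries labelled as MLL4 knockdown, against 85.8, 101 and 131 CPM in wild type (log2 fold change 0.80, SE 0.16, adjusted p = 0.00473). Nid1 had 284, 367 and 327 CPM in the libraries labelled as MLL4 knockdown, against 134, 145 and 235 CPM in wild type (log2 fold change 0.93, SE 0.22, adjusted p = 0.0105). In all 3 genes the groups did not overlap. Lamc1 had 881, 992 and 945 CPM in the libraries labelled as MLL4 knockdown, against 541, 432 and 721 CPM in wild type (log2 fold change 0.73, SE 0.17, adjusted p = 0.00922). These 4 calls were kept without each library in turn. Lama4, an alpha chain known from vascular basement membrane, was low throughout, at 3.55, 2.76 and 2.83 CPM in the libraries labelled as MLL4 knockdown, against 1.51, 1.71 and 1.61 CPM in wild type (log2 fold change 0.92, SE 0.24, adjusted p = 0.0158; 0.0616 without replicate 1 of the libraries labelled as MLL4 knockdown).

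Hspg2 had 780, 1013 and 902 CPM in the libraries labelled as MLL4 knockdown, against 452, 373 and 818 CPM in wild type. The groups overlapped through wild type replicate 3, and the change missed the threshold (log2 fold change 0.71, SE 0.28, adjusted p = 0.0867; 0.00858 with the replicate block). Col4a1 averaged 112 ± 21.2 CPM in the libraries labelled as MLL4 knockdown and 85.0 ± 28.0 CPM in wild type (log2 fold change 0.40, SE 0.29, adjusted p = 0.337; 0.0225 with the block). Col4a2 (log2 fold change 0.12, SE 0.38), Lamb2 (0.00, SE 0.16) and Nid2 (-0.24, SE 0.22) did not pass, at adjusted p of 0.849, 0.997 and 0.467. Lama5, the alpha chain of laminin-511, averaged 246 ± 16.1 CPM in the libraries labelled as MLL4 knockdown and 303 ± 79.0 CPM in wild type (log2 fold change -0.30, SE 0.19, adjusted p = 0.274; 0.0301 with the length trend removed). Lamb1 fell, with 146, 145 and 135 CPM in the libraries labelled as MLL4 knockdown and 189, 182 and 216 CPM in wild type (log2 fold change -0.46, SE 0.12, adjusted p = 0.0151). That call ended without replicate 2 (0.0529) or 3 (0.0677) of the libraries labelled as MLL4 knockdown.

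Lamb3 and Lama3 were again lower than in wild type, Lamb3 by far the more. Lamb3 had 0.430, 0.317 and 0.354 CPM in the libraries labelled as MLL4 knockdown, against 4.36, 3.79 and 4.30 CPM in wild type (log2 fold change -3.49, SE 0.27, adjusted p = 1.4e-05). Lama3 had 11.7, 18.8 and 18.6 CPM in the libraries labelled as MLL4 knockdown, against 32.7, 25.7 and 35.2 CPM in wild type (log2 fold change -0.93, SE 0.20, adjusted p = 0.00677).

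The largest fall among members was that of Col5a3, with 0.699, 0.453 and 0.443 CPM in the libraries labelled as MLL4 knockdown, against 17.1, 10.3 and 12.5 CPM in wild type (log2 fold change -4.64, SE 0.38, adjusted p = 2.04e-05). Col6a5, a collagen VI alpha chain, had 1.67, 1.49 and 1.99 CPM in the libraries labelled as MLL4 knockdown, against 8.41, 11.8 and 13.7 CPM in wild type (log2 fold change -2.71, SE 0.28, adjusted p = 7.82e-05). Neither gene's groups overlapped. Col6a1 (log2 fold change -1.77, SE 0.39, adjusted p = 0.00722) and Col22a1 (-1.30, SE 0.26, adjusted p = 0.00454) also kept their calls without each library in turn, and so did Col1a1 (-2.64, SE 0.59, adjusted p = 0.00762). Col1a1 had 0.807, 1.177 and 1.151 CPM in the libraries labelled as MLL4 knockdown, against 1.195, 8.353 and 10.17 CPM in wild type. Its wild type replicate 1 lay just above the libraries labelled as MLL4 knockdown, so the fall rests on wild type replicates 2 and 3. A further 9 collagen calls, Col5a1, Col2a1, Col17a1, Col9a3, Col6a2, Col1a2, Col4a5, Col12a1 and Col16a1, each ended without some single library, with adjusted p of 0.0508 to 0.145 there. Their log2 fold changes with all libraries ran from -0.91 for Col17a1, the transmembrane collagen of hemidesmosomes, to -3.37 for Col1a2.

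Among the collagens, 3 rose in the libraries labelled as MLL4 knockdown. Col11a1, a minor fibrillar chain of cartilage, had 12.3, 13.03 and 12.5 CPM in the libraries labelled as MLL4 knockdown, against 7.22, 6.14 and 7.39 CPM in wild type (log2 fold change 0.87, SE 0.15, adjusted p = 0.00206). Col5a2 had 4.36, 2.81 and 3.37 CPM in the libraries labelled as MLL4 knockdown, against 1.45, 1.71 and 1.97 CPM in wild type (log2 fold change 1.03, SE 0.28, adjusted p = 0.0184). Its call ended without replicate 1 (0.0752) or 3 (0.0528) of the libraries labelled as MLL4 knockdown. Col18a1 had 473, 503 and 483 CPM in the libraries labelled as MLL4 knockdown, against 370, 347 and 378 CPM in wild type (log2 fold change 0.41, SE 0.12, adjusted p = 0.0283). The 3 Col18a1 values of each group lay close together and apart from the other group, but the call ended with the length trend removed (0.0562) and without wild type replicate 2 (0.0540) or replicate 1 (0.0615), 2 (0.101) or 3 (0.0793) of the libraries labelled as MLL4 knockdown.

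Among integrins, Itgb1 had 254, 254 and 255 CPM in the libraries labelled as MLL4 knockdown, against 370, 371 and 433 CPM in wild type (log2 fold change -0.62, SE 0.14, adjusted p = 0.00784). On chromosome 8 the median log2 fold change of the 774 genes was -0.42 in this comparison, and its part in the Itgb1 result was not tested. Itga3 had 72.8, 62.6 and 62.9 CPM in the libraries labelled as MLL4 knockdown, against 104, 185 and 218 CPM in wild type (log2 fold change -1.35, SE 0.22, adjusted p = 0.00122). No library labelled as MLL4 knockdown reached the wild type range for either gene. Itga7 had 2.48, 2.31 and 2.70 CPM in the libraries labelled as MLL4 knockdown, against 5.19, 12.8 and 11.7 CPM in wild type (log2 fold change -1.99, SE 0.31, adjusted p = 0.000959). Itga1, a collagen receptor chain, had 3.82, 2.398 and 2.35 CPM in the libraries labelled as MLL4 knockdown, against 4.05, 14.2 and 20.7 CPM in wild type (log2 fold change -2.19, SE 0.46, adjusted p = 0.00536). For Itga1 wild type replicate 1 lay just above the libraries labelled as MLL4 knockdown, and replicates 2 and 3 far above.

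Itga2b, the platelet fibrinogen receptor chain, had 1.45, 1.63 and 2.13 CPM in the libraries labelled as MLL4 knockdown, against 4.62, 2.98 and 3.63 CPM in wild type (log2 fold change -1.10, SE 0.24, adjusted p = 0.00683). Itgae, an E-cadherin receptor chain of T cells, averaged 1.15 ± 0.261 CPM in the libraries labelled as MLL4 knockdown and 3.06 ± 0.135 CPM in wild type (log2 fold change -1.41, SE 0.28, adjusted p = 0.00437). Both groups of these genes were apart, at levels of a few CPM. Itga4, a fibronectin and VCAM1 receptor chain, rose, averaging 2.19 ± 0.522 CPM in the libraries labelled as MLL4 knockdown and 0.919 ± 0.420 CPM in wild type (log2 fold change 1.27, SE 0.36, adjusted p = 0.0233). That call ended without wild type replicate 2 (0.0736) or 3 (0.0739), or replicate 2 (0.0927) or 3 (0.0727) of the libraries labelled as MLL4 knockdown. Itga6 (log2 fold change 0.31, SE 0.15), Itga9 (0.25, SE 0.14), Itgav (-0.15, SE 0.14), Itgb3 (-0.40, SE 0.20), Itgb4 (0.09, SE 0.20) and Itgb5 (0.15, SE 0.11) did not pass, at adjusted p from 0.136 to 0.780. Itga5, the fibronectin receptor chain, missed the threshold without the block (log2 fold change -0.37, SE 0.16, adjusted p = 0.116; 0.0412 with it).

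**Figure D4:**
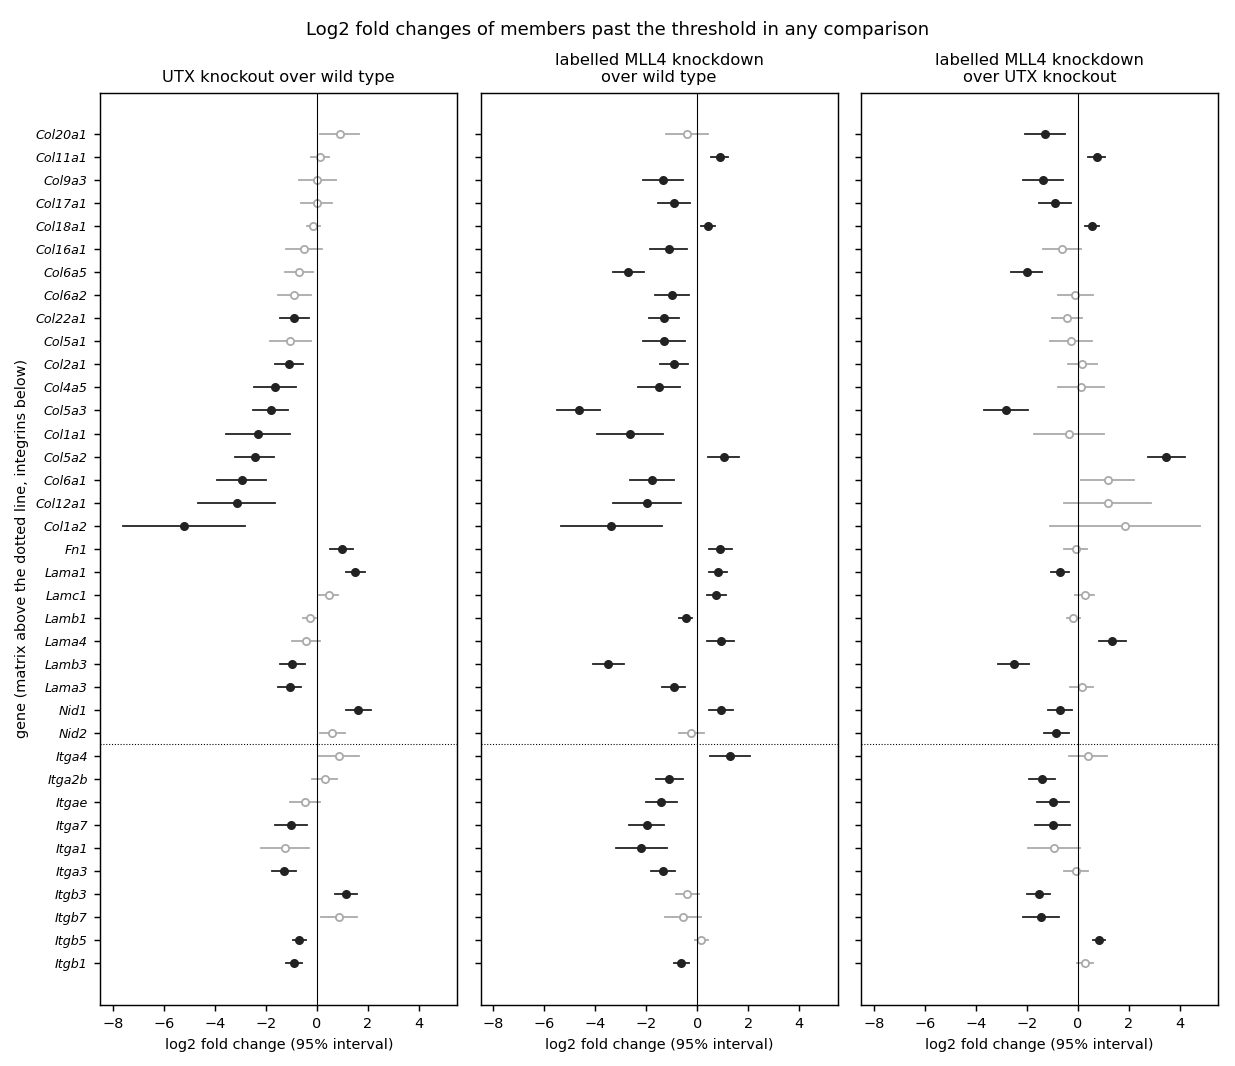
Log2 fold changes with 95% intervals of the 37 members that passed in any comparison; black filled points passed in that panel's comparison and grey open points did not, and matrix genes stand above the dotted line. Nid1, Lama1 and Fn1 lie right of 0 in both panels over wild type, and Col5a2 lies left of 0 for the UTX knockout and right of 0 for the libraries labelled as MLL4 knockdown.

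The direct comparison of the libraries labelled as MLL4 knockdown with the UTX knockout does not use wild type values in its contrast, and it tests where the perturbed groups differ. Col5a2, Col11a1, Col18a1, Lama4 and Itgb5 were higher in the libraries labelled as MLL4 knockdown, and Lama1, Lamb3, both nidogens, 5 collagens and 5 integrins were lower. In all, 19 of 60 members passed, against 28.9% of all genes tested, a share close to that of the members (31.7%). Of the matrix members 4 were higher and 9 lower, and of the receptor members 1 was higher and 5 were lower; over all genes 13.0% were higher and 16.0% lower. Medians were -0.18 for matrix members, -0.38 for receptor members and -0.02 for all genes, on the log2 scale. Within lane 2 alone, 8 of the 19 calls were kept and all 19 kept their direction, and with the replicate block all 19 were kept.

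Col5a2 showed the largest difference of the members, with 4.36, 2.81 and 3.37 CPM in the libraries labelled as MLL4 knockdown, against 0.442, 0.259 and 0.232 CPM in the UTX knockout. The log2 fold change was 3.48 (SE 0.34, adjusted p = 8.3e-05), an 11.2-fold difference, and the groups lay far apart. Its fibril partner Col5a3 differed the other way, with 0.699, 0.453 and 0.443 CPM in the libraries labelled as MLL4 knockdown, against 5.15, 2.08 and 4.04 CPM in UTX knockout libraries (log2 fold change -2.82, SE 0.39, adjusted p = 0.000577). Lamb3 had 0.430, 0.317 and 0.354 CPM in the libraries labelled as MLL4 knockdown, against 1.77, 2.38 and 2.18 CPM in UTX knockout libraries (log2 fold change -2.52, SE 0.28, adjusted p = 0.000164). Lama4 was higher (log2 fold change 1.36, SE 0.24, adjusted p = 0.00230), Col11a1 likewise (0.75, SE 0.15, adjusted p = 0.00423) and Col18a1 as well (0.55, SE 0.12, adjusted p = 0.00686). Col6a5 was lower (-1.997, SE 0.28, adjusted p = 0.000598). Without some single library the calls of Col9a3, Col17a1 and Col20a1, a fibril-associated collagen, ended, with adjusted p there of 0.0536 to 0.111.

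Lama1 was above wild type in both perturbed groups but differed between them, with 186, 189 and 178 CPM in the libraries labelled as MLL4 knockdown, against 244, 337 and 324 CPM in UTX knockout libraries (log2 fold change -0.71, SE 0.16, adjusted p = 0.00808). Nid1 (log2 fold change -0.70, SE 0.22, adjusted p = 0.0340) and Nid2 (-0.84, SE 0.23, adjusted p = 0.0171) were also lower in the libraries labelled as MLL4 knockdown. The Nid1 call ended without UTX knockout replicate 2 (0.118) or 3 (0.103) or any library labelled as MLL4 knockdown (0.0575 to 0.119), and the Nid2 call without UTX knockout replicate 2 (0.0575) or 3 (0.0690) or replicate 1 of the libraries labelled as MLL4 knockdown (0.0681). Of the annotated exon bases of Nid2, 9.0% overlap those of Rtraf on the opposite strand. Fn1 did not differ by the test, at 2167 ± 308 CPM in the libraries labelled as MLL4 knockdown and 2276 ± 403 CPM in the UTX knockout (95% interval of the log2 fold change -0.52 to 0.38).

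For the receptors, Itgb5 had 66.2, 78.7 and 75.9 CPM in the libraries labelled as MLL4 knockdown, against 42.9, 38.0 and 42.4 CPM in UTX knockout libraries (log2 fold change 0.84, SE 0.11, adjusted p = 0.000477). Itgb3 had 4.73, 6.52 and 6.38 CPM in the libraries labelled as MLL4 knockdown, against 14.7, 18.6 and 17.7 CPM in UTX knockout libraries (log2 fold change -1.52, SE 0.20, adjusted p = 0.000449). The groups were apart for both genes. Itgb7, a beta chain known from lymphocytes, had 13.4, 18.6 and 18.9 CPM in the libraries labelled as MLL4 knockdown, against 29.9, 53.7 and 55.7 CPM in UTX knockout libraries (log2 fold change -1.45, SE 0.33, adjusted p = 0.00719). Itga2b was lower by the same test (-1.40, SE 0.24, adjusted p = 0.00179). Itgae (-0.95, SE 0.29, adjusted p = 0.0282) and Itga7 (-0.97, SE 0.31, adjusted p = 0.0359) were lower too, and each lost its call without some single library (adjusted p 0.0513 to 0.130). Itgb1 did not pass (log2 fold change 0.28, SE 0.14, adjusted p = 0.148), although all 3 libraries labelled as MLL4 knockdown lay above all 3 UTX knockout libraries. With the replicate block Itgav (log2 fold change -0.41, SE 0.14, adjusted p = 0.0544; 0.0389 with the block) and Itga5 (-0.34, SE 0.16, adjusted p = 0.135; 0.0499 with the block) also passed.

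Ratios of RNA level between pairs of genes were also taken within each library. Protein was not measured, so they do not give the make-up of the assembled chains. The ratio of Lama1 to Lama5, the alternative alpha chains of the main laminins of these cells, was 1.07, 1.31 and 0.964 per kilobase in UTX knockout libraries, 0.910, 0.856 and 0.920 in the libraries labelled as MLL4 knockdown, and 0.315, 0.558 and 0.424 in wild type. All 6 perturbed libraries were above the 3 wild type libraries. The ratio of Nid1 to Nid2 was 1.115, 1.04 and 0.853 in UTX knockout libraries, 1.07, 1.11 and 1.05 in the libraries labelled as MLL4 knockdown, and 0.442, 0.459 and 0.524 in wild type, again with no overlap. For Lamb1 to Lamc1 it was 0.272 ± 0.00669 in the UTX knockout, 0.200 ± 0.0165 in the libraries labelled as MLL4 knockdown and 0.470 ± 0.0798 in wild type (mean ± SD, n = 3 each). The ratio of Itga6 to Itga3 ran from 3.73 to 4.87 in the UTX knockout, from 3.88 to 5.84 in the libraries labelled as MLL4 knockdown and from 1.23 to 2.48 in wild type. Lama1 to Lamc1 was 0.309 ± 0.0222 in the UTX knockout. It was 0.157 ± 0.00977 in the libraries labelled as MLL4 knockdown and 0.153 ± 0.0304 in wild type, with overlap. Col4a1 to Col4a2 was 1.885 ± 0.133, 2.00 ± 0.235 and 1.76 ± 0.424 in that order of groups, with overlap of all. For Itga3 to Itga5 the means were 0.573, 0.688 and 1.325. These ratios are descriptions and were not tested. Summed over the 42 matrix members, levels were 5001, 6365 and 7318 CPM in the UTX knockout, 5347, 6466 and 6205 CPM in the libraries labelled as MLL4 knockdown and 3877, 3281 and 5177 CPM in wild type, and Fn1 alone made up 36.6% ± 1.44, 36.0% ± 2.09 and 28.3% ± 3.54 of those sums in that order of groups. Summed over the 18 integrins, levels were 759, 944 and 943 CPM in the UTX knockout, 849, 948 and 913 CPM in the libraries labelled as MLL4 knockdown and 980, 1114 and 1308 CPM in wild type.

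Part of the spread lay within wild type. The highest library was more than 2 times the lowest for 12 members in the UTX knockout, 4 in the libraries labelled as MLL4 knockdown and 18 in wild type. Col1a1, Col1a2, Col12a1, Col5a1, Itga1, Itga3 and Itga7 were all lowest in wild type replicate 1. In the same libraries, 14 feeder or fibroblast markers outside the member list summed to 81.4, 87.6 and 103 CPM in the UTX knockout, 188, 149 and 152 CPM in the libraries labelled as MLL4 knockdown and 146, 315 and 244 CPM in wild type. The 15 trophectoderm markers summed to 144, 189 and 220 CPM in the UTX knockout, 104, 121 and 128 CPM in the libraries labelled as MLL4 knockdown and 163, 672 and 605 CPM in wild type. Both sums were lowest in wild type replicate 1 within wild type, as were these members. In the fibroblast list Lum was at 0 in every library, and Dcn, Postn and Col3a1 were at 0 in the UTX knockout. Of the 18 fibroblast markers 11 were tested; 6 fell in the UTX knockout, and 2 rose and 8 fell in the libraries labelled as MLL4 knockdown, each against wild type. The list shares Col1a1, Col1a2, Col6a1 and Col6a2 with the members. Of 13 trophectoderm markers tested, 1 rose and 7 fell in UTX knockout libraries and 10 fell in the libraries labelled as MLL4 knockdown. The part of such cells in the collagen and integrin results was not tested.

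**Figure D5:**
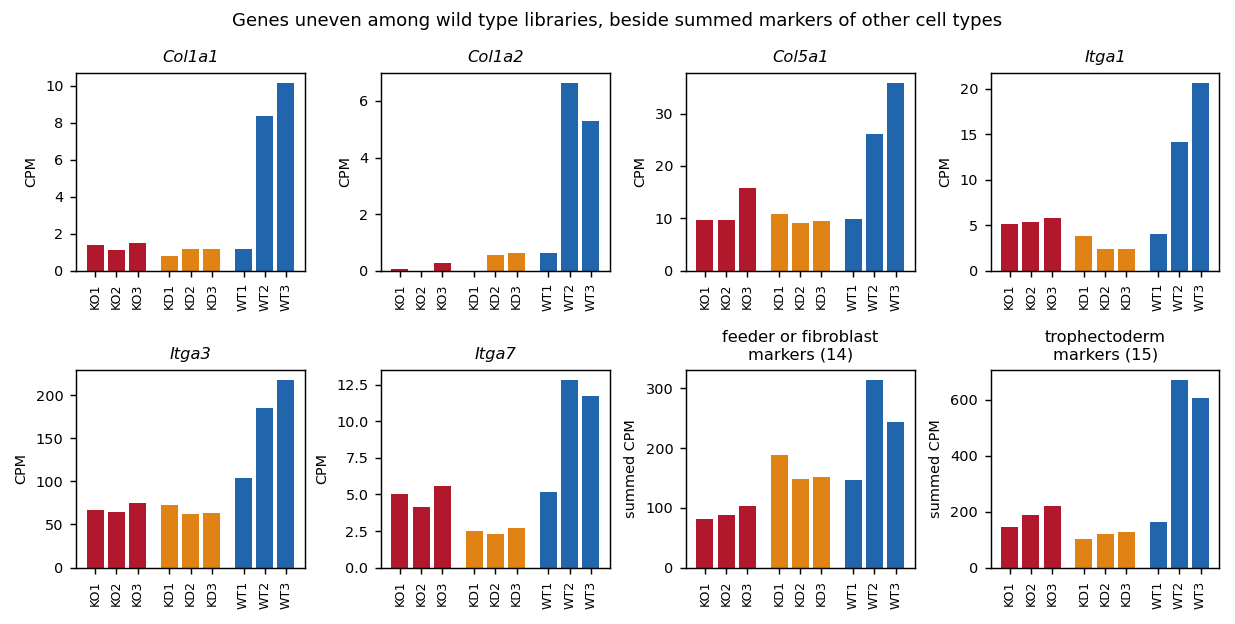
CPM of Col1a1, Col1a2, Col5a1, Itga1, Itga3 and Itga7, and summed CPM of 14 feeder or fibroblast markers and 15 trophectoderm markers, in each library (bars start at 0; KO, UTX knockout; KD, labelled MLL4 knockdown; WT, wild type). Wild type replicate 1 is the lowest wild type library in each panel.

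Endoderm markers were checked because primitive and parietal endoderm lay down much of the basement membrane of the early embryo. The 20 markers, among them Gata4, Gata6 and Sox17, summed to 280, 494 and 488 CPM in the UTX knockout, 140, 233 and 229 CPM in the libraries labelled as MLL4 knockdown and 195, 507 and 454 CPM in wild type. Replicate 1 was the lowest in each group. Of 16 endoderm markers tested, 2 rose and 3 fell in UTX knockout libraries, and 5 rose and 4 fell in the libraries labelled as MLL4 knockdown. The median log2 fold change of these markers against wild type was -0.06 for UTX knockout libraries and 0.45 for those labelled as MLL4 knockdown. In the latter group each sum was below that of the same-numbered wild type library, although the median change was positive. The list therefore gave no single direction there. The part of such cells in the Fn1, laminin and nidogen results was not tested.

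Transcript length was a further difference between libraries. In wild type replicate 2 the level fell with transcript length, at -0.251 log2 units per doubling, against -0.00327 to 0.0597 in the other 8 libraries. Within wild type, 30 of 60 members were lowest in replicate 1, 21 in replicate 2 and 9 in replicate 3. Fn1, Lamc1, Hspg2 and Lama5 were lowest in replicate 2. With the trend removed, all 19 UTX knockout calls, 31 of the 32 calls of the libraries labelled as MLL4 knockdown and all 19 calls between these groups were kept.

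Genes that process or surround these proteins were counted from fixed lists that exclude the members. Their counts stand beside 6.55% of all genes higher and 8.92% lower in the UTX knockout, and 10.8% higher and 15.8% lower in the libraries labelled as MLL4 knockdown, and nothing particular to a list is read from them. For matrix protein processing (hydroxylases, chaperones, crosslinkers and procollagen proteases), 1 of 29 genes tested rose and 4 fell in UTX knockout libraries, and 3 rose and 8 fell in the libraries labelled as MLL4 knockdown. Serpinh1, the collagen chaperone HSP47, averaged 96.1 ± 20.9 CPM in the UTX knockout and 227 ± 52.7 CPM in wild type (log2 fold change -1.24, SE 0.20, adjusted p = 0.00313). In the libraries labelled as MLL4 knockdown Serpinh1 averaged 91.7 ± 13.1 CPM (log2 fold change against wild type -1.31, SE 0.20, adjusted p = 0.000900). Lepre1, a collagen prolyl 3-hydroxylase, averaged 47.6 ± 3.16 CPM in the UTX knockout and 34.8 ± 1.62 CPM in wild type (log2 fold change 0.45, SE 0.11, adjusted p = 0.0166; 0.0686 without UTX knockout replicate 2 and 0.0718 without replicate 3). Plod1, a collagen lysyl hydroxylase, averaged 57.2 ± 3.87 CPM in the libraries labelled as MLL4 knockdown and 88.1 ± 12.3 CPM in wild type (log2 fold change -0.62, SE 0.13, adjusted p = 0.00486).

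Of 32 other matrix proteins tested, 4 rose and 5 fell in UTX knockout libraries, and 4 rose and 10 fell in the libraries labelled as MLL4 knockdown. Tgfbi, an integrin-binding matrix protein, averaged 21.1 ± 4.43 CPM in the UTX knockout, 21.6 ± 2.80 CPM in the libraries labelled as MLL4 knockdown and 6.27 ± 0.203 CPM in wild type. Its log2 fold changes were 1.75 (SE 0.18, adjusted p = 0.000359) and 1.78 (SE 0.18, adjusted p = 6.81e-05). Of 25 matrix proteases and inhibitors, 3 rose and 6 fell in UTX knockout libraries, and 5 rose and 9 fell in the libraries labelled as MLL4 knockdown.

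Of 22 other matrix receptors tested, 2 rose and 4 fell in UTX knockout libraries, and 4 rose and 9 fell in the libraries labelled as MLL4 knockdown. Sdc4, a heparan sulfate proteoglycan of focal adhesions, averaged 12.0 ± 2.50 CPM in the libraries labelled as MLL4 knockdown and 121 ± 14.9 CPM in wild type (log2 fold change -3.33, SE 0.21, adjusted p = 5.43e-06). Sdc2, its family member, averaged 40.4 ± 4.21 CPM in the UTX knockout, 46.5 ± 7.07 CPM in the libraries labelled as MLL4 knockdown and 22.2 ± 2.38 CPM in wild type, and rose in both (adjusted p = 0.00410 and 0.000521). Of 36 integrin adaptors and focal adhesion genes, 2 rose and 7 fell in UTX knockout libraries, and 5 rose and 6 fell in the libraries labelled as MLL4 knockdown. Tln1, talin, which activates integrins from inside the cell, averaged 145 ± 16.6 CPM in the UTX knockout and 246 ± 44.7 CPM in wild type (log2 fold change -0.76, SE 0.14, adjusted p = 0.00614). Tns3, a tensin that binds integrin tails, averaged 526 ± 22.3 CPM in the libraries labelled as MLL4 knockdown and 173 ± 43.6 CPM in wild type (log2 fold change 1.60, SE 0.16, adjusted p = 7.35e-05).

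The other 23 members passed in no comparison. They comprised 11 collagens, 4 basement membrane or laminin genes, among them Hspg2, Lama5 and Lamb2 described above, and 8 integrins. Of these, 2 are named here after their values were seen. Col13a1, a transmembrane collagen, averaged 5.15 ± 1.10 CPM in the UTX knockout, 4.51 ± 0.631 CPM in the libraries labelled as MLL4 knockdown and 3.20 ± 0.908 CPM in wild type. Itga8, a nephronectin receptor chain, had 2.06, 2.68 and 2.60 CPM in the UTX knockout, 2.37, 2.58 and 2.44 CPM in the libraries labelled as MLL4 knockdown and 2.34, 0.511 and 0.940 CPM in wild type, where replicate 1 stood apart. Itga10 shares 34.5% of its annotated exon bases with another gene on the same strand, so its counts are uncertain.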

How the data were processed

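RNA was sequenced from 9 libraries, 3 per group, grouped by their labels. The authors deposited a table of raw counts, in which each library has a column and each gene symbol a line. The tools STAR 2.4 and HTSeq 0.6.1 and builds hg19 and mm9 are listed without a role, per the submitters' processing notes. The gene annotation and any filters or use of strand are not given in the sources cited, so reads of antisense or overlapping genes cannot be told apart.

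Differences were tested here with edgeR 4.0.16 in R 4.3.3: TMM factors, filterByExpr by group (14772 genes kept) and the two-sided quasi-likelihood test with a term for group over all 9 libraries, with Benjamini-Hochberg adjustment over all genes tested and a threshold of 0.05. This procedure was tested on simulated data. CPM was computed from the deposited counts. Alternatives were RLE scaling, DESeq2 1.42.0, no filter and a stricter filter (at least 1 CPM in 3 libraries). Others were only the 2 groups compared, a replicate block and lane 2 alone (replicates 1 and 3, as replicate 2 was in lane 1). Also run were removal of each library's trend with transcript length, that trend with the block, and leaving out each library in turn. For chromosomes 4, 8 and Y no new test was run. Their genes were only dropped from the counts of the test over all 9 libraries.

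Same-numbered libraries deviated together, with correlations of deviations from the group means between 0.168 and 0.467. Different-numbered libraries ran from -0.412 to 0.226. The highest of these was replicate 2 labelled as MLL4 knockdown with UTX knockout replicate 3. It was above the replicate 2 pair of these groups, at 0.181, so a pairing of replicate 2 is uncertain. The replicate block was therefore an alternative only. The pairing comes from this check and not from the labels. Members were named if they passed in any comparison, lay near the count threshold, or belonged to a set of basement membrane and integrin genes. From each other list, genes were named from the 3 of smallest adjusted p against wild type. The members and lists were chosen with earlier results of these data known.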

Additional observations from a re-analysis of the deposited data

How the results depend on the processing

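With lane 2 alone (2 libraries a group), calls numbered 0 matrix, 0 receptor and 74 genes in all in UTX knockout libraries, 5, 3 and 1351 in the libraries labelled as MLL4 knockdown, and 5, 3 and 1547 between these groups; fewer libraries were tested. The replicate block gave 3446 genes in the UTX knockout, and it ended no member call. The length trend removed together with the block gave 23 matrix members and 4384 of all 14772 genes in the UTX knockout. It gave 13 receptor members and 5874 genes in the libraries labelled as MLL4 knockdown, and 10 and 6476 between these groups. With only the 2 groups compared, 1234 genes passed in the UTX knockout. Between the perturbed groups 11 receptor members and 5929 genes passed. The cause was not tested.

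Leaving out each library gave 8 to 16 matrix members, 4 to 8 receptor members and 827 to 2854 genes in the UTX knockout, 15 to 27, 6 to 11 and 2245 to 4026 in the libraries labelled as MLL4 knockdown, and 2560 to 5264 genes between these groups. It ended 8 of 19, 14 of 32 and 7 of 19 member calls in these comparisons, and turned the direction of 0. DESeq2 kept 19, 30 and 19. Outside chromosomes 4, 8 and Y, 14 matrix members, 4 receptor members and 1764 genes had passed in the UTX knockout. In the libraries labelled as MLL4 knockdown the counts were 24, 6 and 3268. These are recounts of the calls over all 9 libraries with no new test, so they do not show how these chromosomes affect other members. Hspg2 and Col16a1 are among the members on chromosome 4. There the median log2 fold change of 984 genes against wild type was -0.153 and -0.213 in these groups. Its part in their results was not tested.

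Directions turned only for changes that had not passed. In the UTX knockout Col4a2 was 0.003 with RLE, 0.004 with DESeq2, 0.005 without the filter, 0.064 with the block and 0.024 in lane 2, where Lama5 was -0.045 and Itga6 -0.034. Without single libraries the log2 fold changes there ran from -0.086 to 0.275 for Lama5, -0.032 to 0.235 for Lamb2, -0.027 to 0.483 for Col4a1, -0.350 to 0.399 for Col4a2, -0.198 to 0.097 for Itga5 and -0.171 to 0.095 for Itga9. In the libraries labelled as MLL4 knockdown Lamb2 was 0.011 with RLE and with DESeq2, 0.032 without the filter and 0.002 with the block, and Itgb4 was -0.029 with the length trend removed. Without single libraries Lamb2 ran from -0.089 to 0.108, Col4a2 from -0.228 to 0.519, Itgb4 from -0.112 to 0.245 and Mll2 from -0.509 to 0.156. Causes were not tested. With 3 libraries a group, members at a few CPM rest on few reads, which limits the size of change that can be seen.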
